A study of Mus musculus with 16 samples.

Results

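The mRNAs of 9 citric acid cycle genes were followed in CFU-E cells, the erythroid progenitors that give rise to proerythroblasts: Cs, Idh2, Idh3a, Ogdh, Suclg1, Suclg2, Sucla2, Fh1 and Mdh2. They were taken by symbol as enzymes of the cycle, and the list was drawn up with earlier results of these data known. All 9 were found among the 15386 genes of the RNA-seq table and the 13490 genes of the m6A table, and all 9 were among the 11979 and 11447 genes left after low counts were removed. In the libraries labelled Mettl3-deficient, Suclg1, Suclg2 and Fh1 were lower than in control CFU-E, Sucla2 and Mdh2 were lower by less, and Cs, Idh2, Idh3a and Ogdh did not pass the test. In m6A IP over input from control cells, Idh2 was lower, and Sucla2 was enriched close to the threshold, a call that was lost in 5 of 11 alternatives.

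The RNA-seq compared 3 libraries of control CFU-E with 3 from the Kit-lo fraction of Mettl3-deficient CFU-E, both sorted from mouse bone marrow. The m6A experiment compared 2 IP libraries, made from RNA captured with an antibody to N6-methyladenosine, with 2 input libraries, all from control CFU-E. The deficient mice carried Mettl3 fl/fl and 1 copy of EpoR-tdTomato-Cre, a Cre that also recombines in macrophages of erythroblastic islands and in part of the hematopoietic stem cells, and the genotype of the controls is not given in the labels. Mice were of a C57BL/6 background, of both sexes and 10 to 16 weeks old per the study's methods, and no source used here says whether the libraries of a group came from separate animals, so the p-values measure the spread between these libraries. CFU-E cells were gated as lineage-negative Kit+CD71+ cells, and the Kit-lo cells are the deficient CFU-E with very little Kit on their surface. Genotype and Kit gate therefore cannot be told apart, and no control cells of low Kit are part of the comparison. Because these are bulk samples, fewer cells of a type and less RNA per cell cannot be told apart either.

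Library totals ran from 17429262 to 21329242 estimated counts in the RNA-seq and from 19421059 to 37142742 in the m6A libraries. In CPM (counts scaled to a common library total, with TMM factors), control libraries held 115, 123 and 130 of Mettl3 itself and those labelled deficient 117, 127 and 108. Its log2 fold change was -0.07 (SE 0.096), with an adjusted p of 0.63 (edgeR's quasi-likelihood test, adjusted by Benjamini-Hochberg). Its gene-level count sums all exons, and which exons the floxed allele loses is not given in the sources used here, so these counts are no check of the genotype. The study assessed it by PCR genotyping and by mRNA and protein measurements in erythroid cells, which were not analysed here. The 3 libraries are therefore called the libraries labelled Kit-lo. The Kit part of that label was seen in the counts, with Kit at 544 to 629 CPM in control and 44.0 to 68.5 CPM in the libraries labelled Kit-lo. Of 8 genes of CFU-E identity, 4 were called higher (Klf1, Epor, Nfe2 and Zfpm1) and 1, Kit, was called lower. Gata1, Tfrc and Tal1 were not called. Their sum (here and for the marker sums that follow, CPM without TMM factors) ran from 3104 to 3185 CPM in control and from 3338 to 3466 CPM in the libraries labelled Kit-lo. Genes of late erythroid cells moved with the same groups, 8 of 11 tested being called higher with a median log2 fold change of 3.77, and 4 of 6 early progenitor genes were called lower with a median of -3.14. Marker genes of other cell types were low throughout, the summed macrophage genes running from 11.3 to 15.4 CPM in control and from 8.05 to 10.4 CPM in the libraries labelled Kit-lo, the granulocyte genes from 24.8 to 38.4 and from 16.6 to 24.6, the megakaryocyte genes from 12.8 to 20.4 and from 19.9 to 26.7, and the lymphoid genes from 3.04 to 3.47 and from 2.78 to 5.30. Of 4 megakaryocyte genes tested, 2 were called higher, Itga2b from a mean of 2.68 to 8.24 CPM and Gp9 from 1.42 to 3.52 CPM. The other 2 were not called. Vwf was level, with a log2 fold change of 0.05. Pf4 went the other way, from a mean of 1.12 to 0.22 CPM, with each library labelled Kit-lo below each control. The megakaryocyte genes thus did not rise as a set. Of 4 granulocyte genes tested, 1 was called higher and 1 lower, and of 6 macrophage genes 1 was called lower. Over all genes tested, 12.1% were called higher and 9.83% lower. The part of maturation stage or of these other cells in the results was not tested.

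The citric acid cycle burns acetyl-CoA in the mitochondrial matrix and hands its electrons to the respiratory chain. In erythroid cells it has a further role, since succinyl-CoA, made by the oxoglutarate dehydrogenase complex, is joined to glycine by 5-aminolevulinate synthase in the first step of heme synthesis. Succinyl-CoA synthetase interconverts succinyl-CoA and succinate, and it is built from the alpha subunit Suclg1 with one of a pair of beta subunits, Suclg2 for the GDP-forming enzyme and Sucla2 for the ADP-forming enzyme. Fh1 and Mdh2 catalyse the last steps, from fumarate to malate and from malate to oxaloacetate, and Cs, Idh2, Idh3a and Ogdh act before succinyl-CoA.

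Promoter sequences, credited to RefSeq on GRCm38.p6, are shown for the 3 subunits of succinyl-CoA synthetase and for Fh1, because Suclg1, Suclg2 and Fh1 fell together while Sucla2 fell less. Each runs 5′ to 3′ on the strand of the gene, across the annotated start. Capitals mark matches, on either strand, to the SP1 motif GGGCGG, to the CCAAT box, or to the NRF1 motif, which is GCGC and TGCGC with 1 base of any kind between them.

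Suclg1 (chr6:73248255-73248554, plus strand): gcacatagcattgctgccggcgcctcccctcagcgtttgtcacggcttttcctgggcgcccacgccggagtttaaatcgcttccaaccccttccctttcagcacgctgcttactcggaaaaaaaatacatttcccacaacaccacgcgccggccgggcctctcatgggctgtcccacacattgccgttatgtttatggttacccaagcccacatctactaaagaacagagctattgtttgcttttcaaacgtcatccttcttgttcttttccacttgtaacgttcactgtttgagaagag
Suclg2 (chr6:95718797-95719096, minus strand): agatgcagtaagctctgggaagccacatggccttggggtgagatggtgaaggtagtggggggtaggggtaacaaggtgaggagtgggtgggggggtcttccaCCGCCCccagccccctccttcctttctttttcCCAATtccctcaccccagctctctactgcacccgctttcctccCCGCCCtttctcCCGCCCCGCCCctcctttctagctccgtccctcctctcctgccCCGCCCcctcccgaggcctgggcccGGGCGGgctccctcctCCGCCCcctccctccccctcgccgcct
Sucla2 (chr14:73552536-73552835, plus strand): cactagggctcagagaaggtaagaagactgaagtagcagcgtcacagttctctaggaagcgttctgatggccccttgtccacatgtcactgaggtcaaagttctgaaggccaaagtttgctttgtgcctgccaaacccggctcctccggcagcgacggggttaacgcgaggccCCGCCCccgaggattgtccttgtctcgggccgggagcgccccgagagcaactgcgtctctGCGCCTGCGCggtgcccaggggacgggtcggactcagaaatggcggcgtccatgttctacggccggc
Fh1 (chr1:175625586-175625885, minus strand): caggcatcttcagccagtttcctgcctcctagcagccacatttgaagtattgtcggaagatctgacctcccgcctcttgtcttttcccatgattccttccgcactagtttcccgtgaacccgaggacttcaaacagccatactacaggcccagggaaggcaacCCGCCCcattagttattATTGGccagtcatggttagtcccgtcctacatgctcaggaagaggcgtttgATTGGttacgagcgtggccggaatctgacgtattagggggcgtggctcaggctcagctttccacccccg

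A promoter was found for 8 of the 9 genes, all but Idh3a, with several for Ogdh. A gene was counted when any of its promoters matched, whereas the shares of all promoters count each promoter singly. The units therefore differ for Ogdh. The NRF1 motif, named after a regulator of nuclear genes for mitochondrial proteins, was present in Sucla2 and in no other of the 8, against 4.6% of 32851 promoters of the same length. The SP1 motif was present in 7 of the 8, Suclg1 being the exception, against 35.7% of all promoters, and the CCAAT box in 5 of the 8, namely Cs, Idh2, Ogdh, Suclg2 and Fh1, against 37.4%. The E-box CACGTG was found in Ogdh alone (7.15% of all promoters), and the ETS motif CCGGAAG (8.86%) and the GATA motif AGATAA (11.2%) were found in none of the 8. Suclg1 matched none of the 6 motifs in its window, so it could share none with any other gene, and nothing is read from that. The SP1, CCAAT, ETS, E-box and GATA motifs do not contain one another, and a match is a description of letters and not a binding site.

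Of the 9 genes, 3 were called lower in the libraries labelled Kit-lo (fold of at least 1.5 and adjusted p under 0.05), where 9.83% of all genes tested were called lower. Because the list was drawn up with earlier results known, this share is printed as background and nothing is read from the comparison. None was called higher, where 12.1% of all genes were. With the adjusted p alone, 5 of the 9 were lower and 0 higher, against 16.9% and 17.6% of all genes. The libraries of the groups did not overlap for 6 genes below control and for 1 gene above it, against 24% and 23.5% of all genes tested. The median log2 fold change of the 9 genes was -0.24, and that of all genes tested was 0.01.

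**Figure D1:**
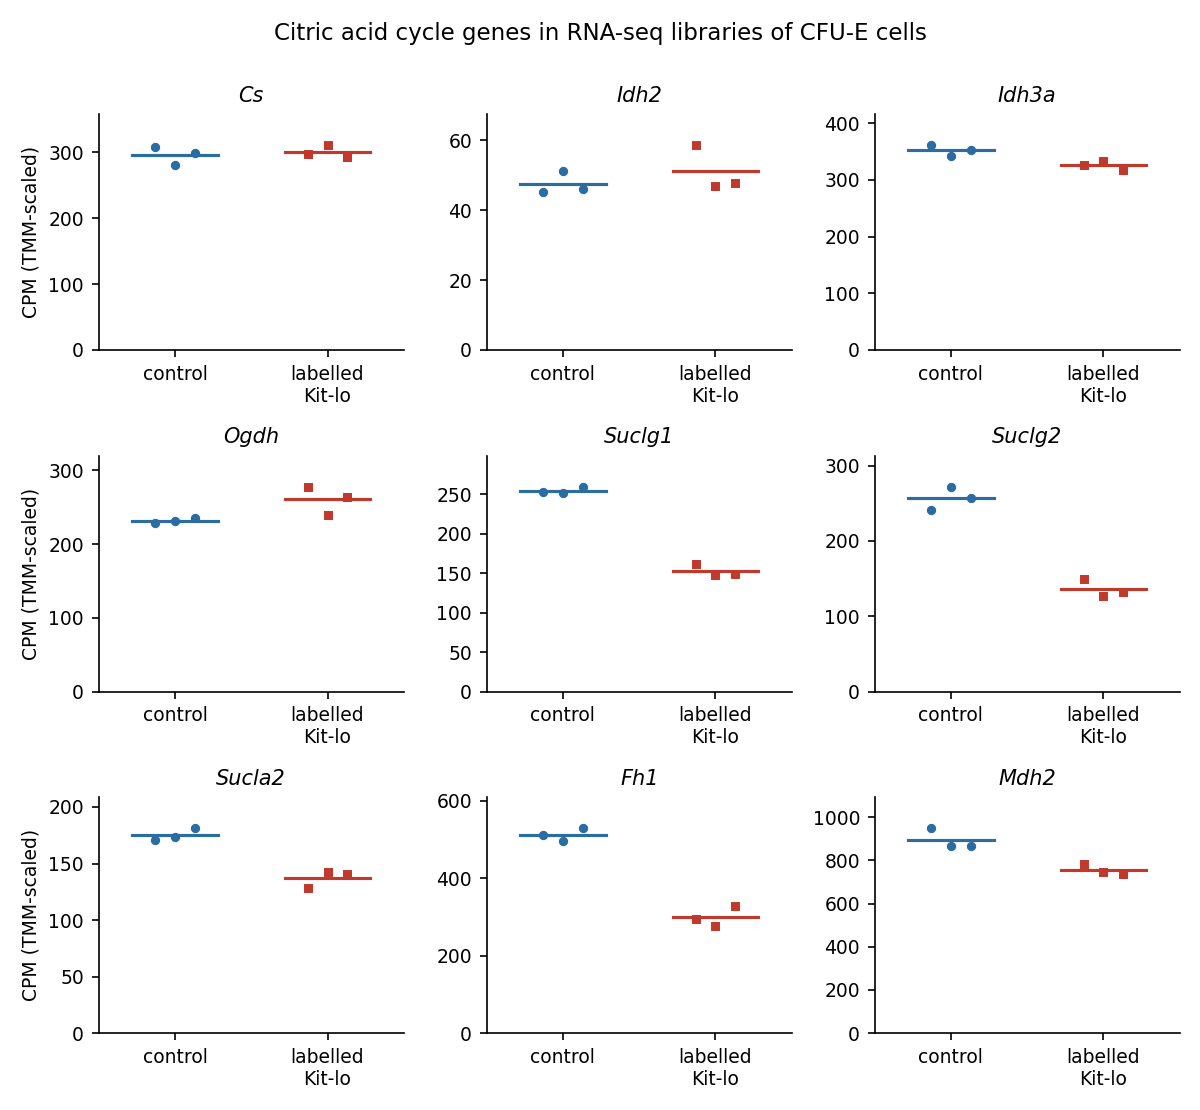
CPM (TMM-scaled, axis from 0) of the 9 genes in 3 control libraries (blue circles) and 3 libraries labelled Kit-lo (red squares), with a line at each group's mean. Suclg1, Suclg2 and Fh1 stood clearly apart, with group means of 255 against 153, 257 against 137 and 512 against 299.9 CPM, while Cs and Idh2 overlapped.

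The entry of the cycle was level. Cs, citrate synthase (chr10:128337734-128362479 on GRCm38), joins acetyl-CoA to oxaloacetate. Control libraries gave 308, 281 and 299 CPM and those labelled Kit-lo 297, 311 and 293 CPM, and the groups overlapped. The log2 fold change was 0.02 with a 95% interval from -0.14 to 0.18. That interval lies within the 1.5-fold threshold on both sides, although its sign turned under some settings.

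Neither isocitrate dehydrogenase gene of the list passed the test. Idh2 (chr7:80094846-80115392), the NADP-dependent mitochondrial enzyme, was the least abundant of the 9, at 45.1, 51.1 and 46.0 CPM in control and 58.6, 46.9 and 47.8 CPM in the libraries labelled Kit-lo. A single library of the latter group was high, and the log2 fold change of 0.11 (95% interval -0.17 to 0.39) became -0.0049 without it. Idh3a (chr9:54586334-54604661), the catalytic subunit of the NAD-dependent enzyme of the cycle, measured 362, 342 and 353 CPM against 327, 333 and 317 CPM. All 3 of the latter lay below all 3 control libraries, but the step was small, with a log2 fold change of -0.11 (95% interval -0.27 to 0.04) and an adjusted p of 0.26 by edgeR's quasi-likelihood test.

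Ogdh (chr11:6291633-6356642), the first enzyme of the complex that makes succinyl-CoA, had the highest log2 fold change of the 9. Its levels were 229, 231 and 236 CPM in control and 278, 240 and 264 CPM in the libraries labelled Kit-lo, each of the latter above each control. The log2 fold change was 0.17 (SE 0.080, 95% interval -0.01 to 0.35) with an adjusted p of 0.14 by edgeR's quasi-likelihood test, so it did not pass, and without replicate 2 of the libraries labelled Kit-lo it was 0.25 with an adjusted p of 0.046.

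The next step stood in contrast. Suclg1 (chr6:73248382-73276911), the alpha subunit that both forms of succinyl-CoA synthetase need, fell by 40.1%, from 252, 252 and 260 CPM to 162, 147 and 149 CPM. The log2 fold change was -0.74 (SE 0.077) with an adjusted p of 7.4e-05 by edgeR's quasi-likelihood test. Suclg2 (chr6:95473009-95718800), the GDP-forming beta subunit, fell by 46.9%, from 241, 272 and 258 CPM to 150, 127 and 132 CPM, with a log2 fold change of -0.91 (SE 0.092) and an adjusted p of 5.9e-05 in the same test. For both subunits the highest library labelled Kit-lo lay far below the lowest control library.

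Suclg2 carries a caution of identity. Of its 31-base words, 20.7% also occur in other annotated genes, and 20.1% occur in Gm15163, a processed pseudogene that was not analysed here, so reads from that stretch could not be assigned with certainty. For Cs the shared part was 5.97%, for Suclg1 1.96%, and for the other 6 genes under 1%. No exon of the 9 genes overlapped an exon of another gene on either strand in the annotation used. Some shared words lay on the opposite strand of the other gene, such as 0.884% of those of Suclg1 and 0.557% of those of Fh1. The strand of the counting could bear on such words.

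Sucla2 (chr14:73525319-73596142), the ADP-forming beta subunit, measured 171, 173 and 181 CPM in control and 129, 143 and 141 CPM in the libraries labelled Kit-lo. The groups did not overlap, yet the level fell by 21.6%, which is under the fold threshold, with a log2 fold change of -0.35 (SE 0.082) and an adjusted p of 0.0083 by edgeR's quasi-likelihood test. All 3 subunits were thus lower, and the beta subunit of the ADP-forming enzyme by the least.

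Among the late steps, Fh1 fell and Mdh2 was lower by less. Fh1 (chr1:175600374-175625635), fumarate hydratase, fell by 41.4%, from 512, 495 and 529 CPM to 295, 276 and 328 CPM, a log2 fold change of -0.77 (SE 0.083) with an adjusted p of 8.5e-05 by edgeR's quasi-likelihood test. Mdh2 (chr5:135778480-135790398), malate dehydrogenase of the mitochondrion and the most abundant of the 9, measured 950, 866 and 865 CPM against 784, 748 and 739 CPM. Its log2 fold change was -0.24 (SE 0.072) with an adjusted p of 0.027 in the same test, under the fold threshold. That p was near the limit: leaving out control replicate 1 or 3, or replicate 2 or 3 of the libraries labelled Kit-lo, gave adjusted p-values of 0.11, 0.052, 0.095 and 0.077, and scaling by library size only gave 0.064.

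**Figure D2:**
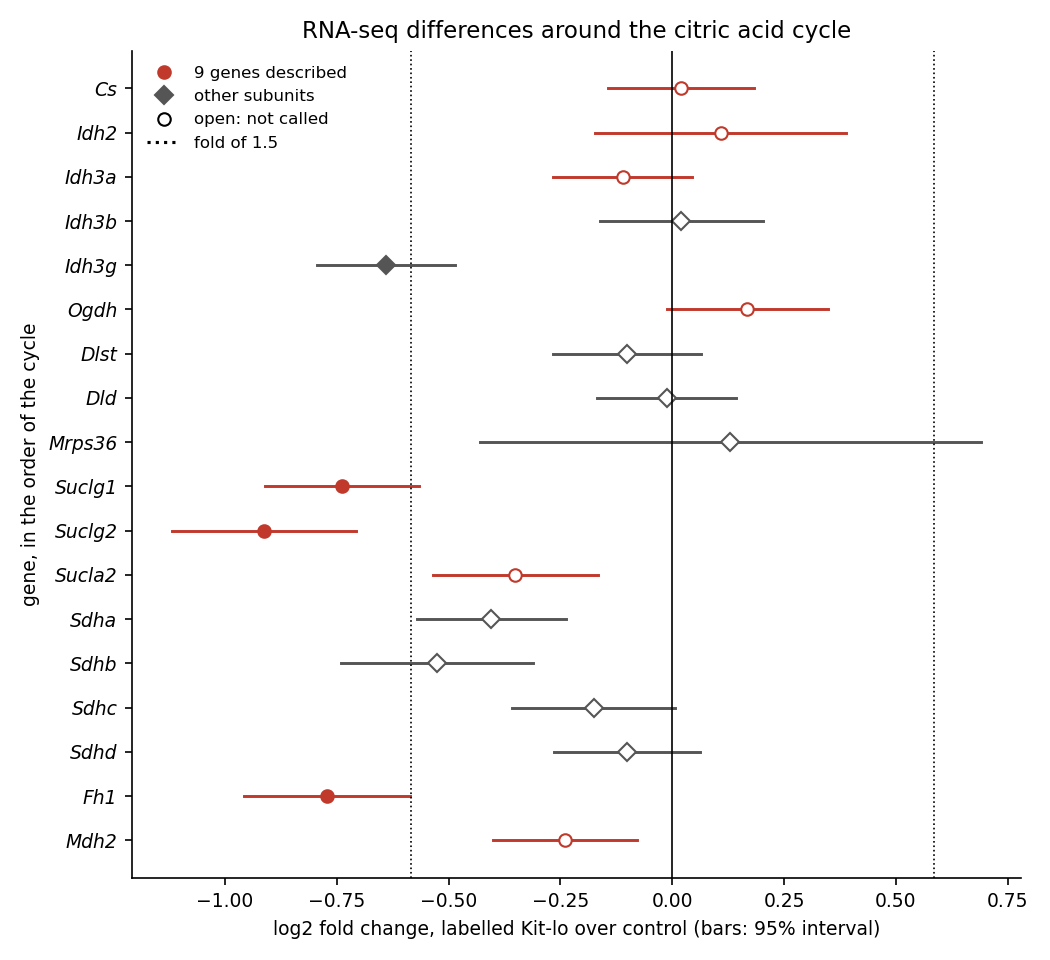
Log2 fold change in RNA-seq (labelled Kit-lo over control, 3 libraries each) with its 95% interval for the 9 genes (red circles) and 9 of the other subunits of the cycle (grey diamonds), from top to bottom in the order of the cycle. Filled symbols were called and dotted lines mark a fold of 1.5. The genes called were Idh3g at -0.64, Suclg1 at -0.74, Suclg2 at -0.91 and Fh1 at -0.77. Between Suclg2 and Fh1, Sdhc at -0.18 and Sdhd at -0.10 did not pass the test. Neither did Ogdh, Dlst and Dld, between Idh3g and Suclg1.

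The sum of the 9 mRNAs in TMM-scaled CPM was 3070, 2963 and 3027 in control and 2480, 2372 and 2411 in the libraries labelled Kit-lo. Without TMM factors, as a plain share of the counts, it ran from 2911 to 3005 CPM and from 2394 to 2553 CPM. The TMM-scaled sum was 19.8% lower, with a log2 difference of -0.32. Its exact permutation p was 0.1, two-sided, which is the smallest p that 3 against 3 libraries allow. Without Suclg1, Suclg2 and Fh1 the sum of the other 6 was lower by 8.22%, which is a description only, since the genes left out are those called lower.

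Ratios between genes within a library need no scaling between libraries. The count of Suclg2 over that of Sucla2 was 1.41, 1.57 and 1.42 in control and 1.17, 0.894 and 0.938 in the libraries labelled Kit-lo. The difference in log2 ratio was -0.56, so that the beta subunits went from more counts of Suclg2 to about equal counts, with an exact permutation p of 0.1, the smallest possible. Gene length cancels in that difference but not in the ratio itself. Suclg2 over Suclg1 differed by -0.18 on the log2 scale and Sucla2 over Suclg1 by 0.39, so Suclg2 and its alpha subunit fell by amounts nearer to each other than Sucla2 and Suclg1.

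Other neighbours in the cycle also parted. Ogdh over Suclg1, the enzyme that makes succinyl-CoA over the one that takes it on, was 0.908, 0.919 and 0.907 in control and 1.72, 1.63 and 1.77 in the libraries labelled Kit-lo, a log2 difference of 0.91. Fh1 over Mdh2 was 0.540, 0.571 and 0.612 against 0.377, 0.370 and 0.444, a log2 difference of -0.54. In each of these 5 ratios the groups did not overlap, and each had an exact permutation p of 0.1, the smallest that this design allows. In all, 7 ratios were computed, and no adjusted p is given since none could pass.

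**Figure D3:**
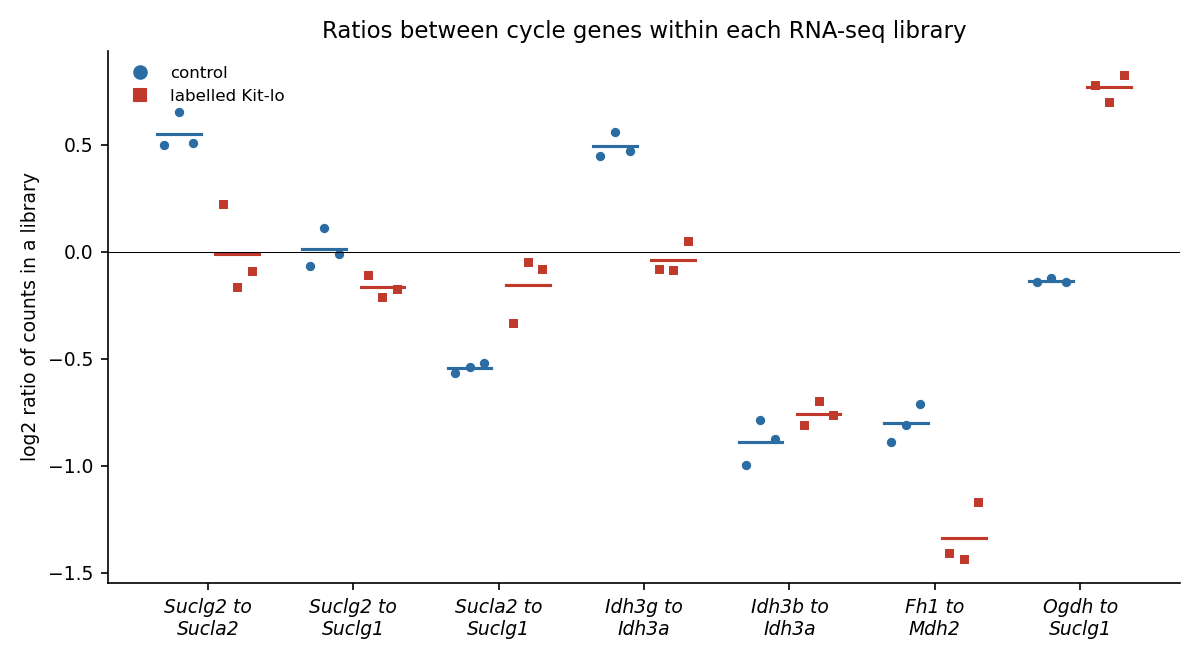
Log2 ratio of the counts of 2 genes in the same RNA-seq library, for 3 control libraries (blue circles) and 3 libraries labelled Kit-lo (red squares), with a line at each group's mean. Suclg2 over Sucla2 went from 0.55 to -0.01 and Ogdh over Suclg1 from -0.13 to 0.77, while Idh3b over Idh3a overlapped between the groups.

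Across the 6 libraries, Suclg1, Suclg2 and Fh1 followed each other closely, with Pearson's r of 0.992 between Suclg1 and Suclg2, 0.975 between Suclg1 and Fh1 and 0.962 between Suclg2 and Fh1. These values describe 6 libraries in 2 groups and mostly restate the difference between the groups. Ogdh ran the other way, with r of -0.723 to Suclg1, and Cs followed neither, with r of -0.229. Among 6929 genes of at least moderate expression, those whose pattern was most like Suclg1 were Cdc42bpa (r 0.9998), Cmah (0.9987) and Acsl5 (0.9984). For Suclg2 they were Dctn2 (0.9985), Zfp386 (0.9982) and Snx1 (0.9977), and for Sucla2 they were Rps12 (0.998), Ybx1 (0.9971) and Sypl (0.9956). Such likeness was common, since 657, 533 and 362 genes had r above 0.95 with Suclg1, Suclg2 and Sucla2.

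The enzymes of the cycle are assemblies, and the 10 other subunits were described beside the 9 genes. Of these, 1 was called lower and 0 higher, and 3 were lower with the adjusted p alone, with a median log2 fold change of -0.10. As background here and for the lists that follow, 9.83% of all genes tested were called lower and 12.1% higher. With the adjusted p alone those shares were 16.9% and 17.6%. The one called was Idh3g, a regulatory subunit of the NAD-dependent isocitrate dehydrogenase, at 493, 504 and 489 CPM in control and 310, 315 and 329 CPM in the libraries labelled Kit-lo, with a log2 fold change of -0.64 (SE 0.069) and an adjusted p of 8.7e-05 by edgeR's quasi-likelihood test. Its partner subunits moved little, Idh3a by -0.11 and Idh3b by 0.02 on the log2 scale, so that counts of Idh3g over Idh3a went from 1.36, 1.48 and 1.39 to 0.948, 0.944 and 1.04 (log2 difference -0.53, exact permutation p 0.1). Idh3b over Idh3a differed by 0.13 and the groups overlapped (exact permutation p 0.2).

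Succinate dehydrogenase, which takes the succinate on to fumarate, was lower in 2 of its 4 subunits without reaching the fold threshold. The flavoprotein subunit Sdha had a log2 fold change of -0.41 (SE 0.075) with an adjusted p of 0.0022 and the iron-sulfur subunit Sdhb one of -0.53 (SE 0.096) with 0.0021, by edgeR's quasi-likelihood test, while the membrane anchors Sdhc and Sdhd, at -0.18 and -0.10, did not pass. The partners of Ogdh in its complex, Dlst and Dld, were at -0.10 and -0.01 and did not pass either. The sum of the 10 subunits was lower by 14.6% (log2 difference -0.23, exact permutation p 0.1).

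Around succinyl-CoA, genes of supply and of use did not move as a block. Of 12 genes listed, 11 were found and 10 tested, of which 2 were called higher and 1 lower, and 3 were higher and 4 lower with the adjusted p alone. Oxct1, which draws on succinyl-CoA to activate ketone bodies, fell from 128, 130 and 140 CPM to 63.9, 63.0 and 61.5 CPM, a log2 fold change of -1.08 (SE 0.089) with an adjusted p of 1.7e-05 by edgeR's quasi-likelihood test. Its fold change was thus larger than that of any of the 9 genes, a comparison between genes that was not tested. The propionate route, which makes succinyl-CoA from odd-chain fatty acids and some amino acids, was mixed, with Pcca at -0.45 (adjusted p 0.037), Pccb at -0.40 (0.051), Mcee at 0.12 (0.54) and Mmut at 0.22 (0.097).

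Genes that serve the first step of heme synthesis, the other user of succinyl-CoA, moved both ways. Alas2, the erythroid 5-aminolevulinate synthase, rose from 1.96, 4.52 and 2.18 CPM to 99.0, 193 and 118 CPM, a log2 fold change of 5.58 (SE 0.35) with an adjusted p of 4.1e-06 by edgeR's quasi-likelihood test, and it is itself one of the late erythroid genes. Slc25a38, the mitochondrial glycine carrier of heme synthesis, rose from 177, 176 and 171 CPM to 248, 294 and 346 CPM (log2 fold change 0.76, SE 0.11, adjusted p 6.3e-04). Slc25a39, also on the list, was higher with 0.42 (SE 0.090, adjusted p 0.0051 in the same test), under the fold threshold. The housekeeping synthase Alas1 was lower, with a log2 fold change of -0.31 and an adjusted p of 0.049, and Clpx, a chaperone that acts on the synthase, was at -0.36 with 0.012. The libraries labelled Kit-lo thus had high Alas2, low Suclg1, Suclg2 and Oxct1, and Ogdh above every control library. With 2 groups this only restates the differences between the groups, and no link between these genes was tested.

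**Figure D4:**
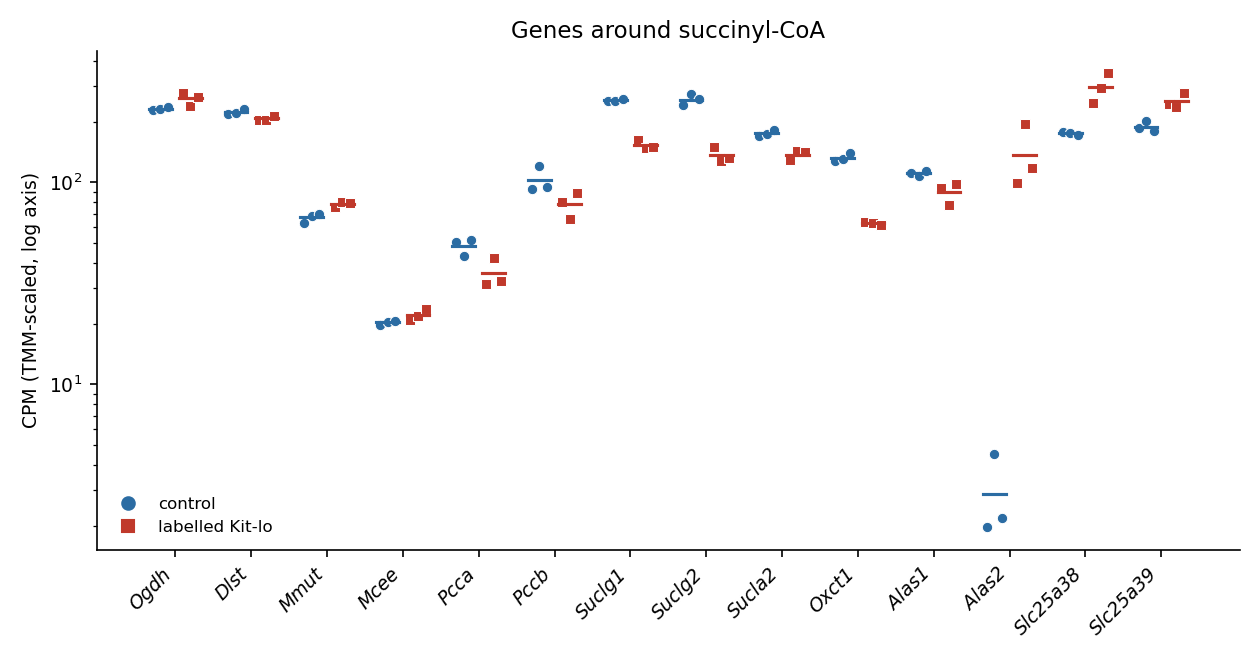
CPM on a log axis of genes that make, take on or draw off succinyl-CoA or serve the first steps of heme synthesis, in 3 control libraries (blue circles) and 3 libraries labelled Kit-lo (red squares), with a line at each group's mean. Alas2 rose from a mean of 2.89 to 137 CPM, Oxct1 fell from 133 to 62.8 CPM, and Ogdh stayed between 229 and 278 CPM in all 6 libraries.

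Upstream of Cs, 13 of 14 genes of pyruvate entry were tested. Of these, 1 was called lower and 0 higher, and 4 were lower and 2 higher with the adjusted p alone. Dlat and Pdha1, subunits of the pyruvate dehydrogenase complex, were at -0.52 (adjusted p 9.5e-04) and -0.34 (0.011), and the kinases that inhibit the complex parted, Pdk1 at 0.52 (0.0012) and Pdk2, the one called, at -0.60 (0.047). Pcx, pyruvate carboxylase, which refills oxaloacetate, was at 0.56 (0.0091), all by edgeR's quasi-likelihood test.

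Of 14 tested genes for cytosolic counterparts and carbon exit, 2 were called lower and 1 higher, and 4 were lower and 2 higher with the adjusted p alone. The citrate carrier Slc25a1 fell with a log2 fold change of -0.69 (adjusted p 3.5e-04) and the mitochondrial malic enzyme Me2 with -0.65 (3.1e-04). The glutamine transporter Slc1a5 rose with 0.90 (4.7e-04), by edgeR's quasi-likelihood test. The cytosolic malate dehydrogenase Mdh1 was at -0.41 (0.0018), lower by more than its mitochondrial counterpart Mdh2 at -0.24, a difference between the genes that was not tested.

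The 9 genes were also set beside genes of mitochondrial mass. Of 20 such genes (import channels, chaperones, outer-membrane porins and the like), 1 was called lower, Phb at -2.33, and with the adjusted p alone 7 were lower and 1 higher, with a median log2 fold change of -0.17. The median of the 9 cycle genes was -0.24 on the same scale. Of 9 tested regulators of mitochondrial biogenesis, 1 was called higher, Pprc1 at 0.62, and 0 lower. With the adjusted p alone 2 were higher and 1 lower. Nrf1 was at 0.32 (adjusted p 0.037) and Myc at -0.38 (0.025), by edgeR's quasi-likelihood test.

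In control CFU-E the 9 mRNAs spanned a wide range of levels per length. On the scale of CPM per kb of merged exons, with the SD over 3 libraries, Mdh2 stood at 251 ± 13.6 and Fh1 at 151 ± 5.08, each clear of the next. Idh3a followed at 69.4 ± 1.98, then Suclg2 at 55.6 ± 3.40, Suclg1 at 55.1 ± 0.966 and Cs at 51.2 ± 2.34, of which Suclg2 and Suclg1 differed by less than their spread. Sucla2 at 43.9 ± 1.39 and Ogdh at 42.5 ± 0.600 differed by less than the SD of Sucla2, and Idh2 at 18.3 ± 1.26 was the lowest. With the length of the longest transcript the order of the middle changed, Cs coming before Suclg1 at 98.6 CPM per kb and Suclg2 coming after Sucla2 at 76.3, while Mdh2, Fh1 and Idh3a stayed at the top and Ogdh and Idh2 at the end.

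In the m6A experiment the question was which of these mRNAs the antibody to N6-methyladenosine captured beyond their share of the input. In control CFU-E, 1 of the 9 was enriched in IP (log2 fold change above 0 and adjusted p under 0.05), where 7.9% of all genes tested were, and 1 was lower in IP, where 7.86% were. Libraries did not overlap for 2 genes above input and 2 below it, against 32.2% and 28.7% of all genes. The median log2 fold change of the 9 was -0.08 and that of all genes was 0.06.

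**Figure D5:**
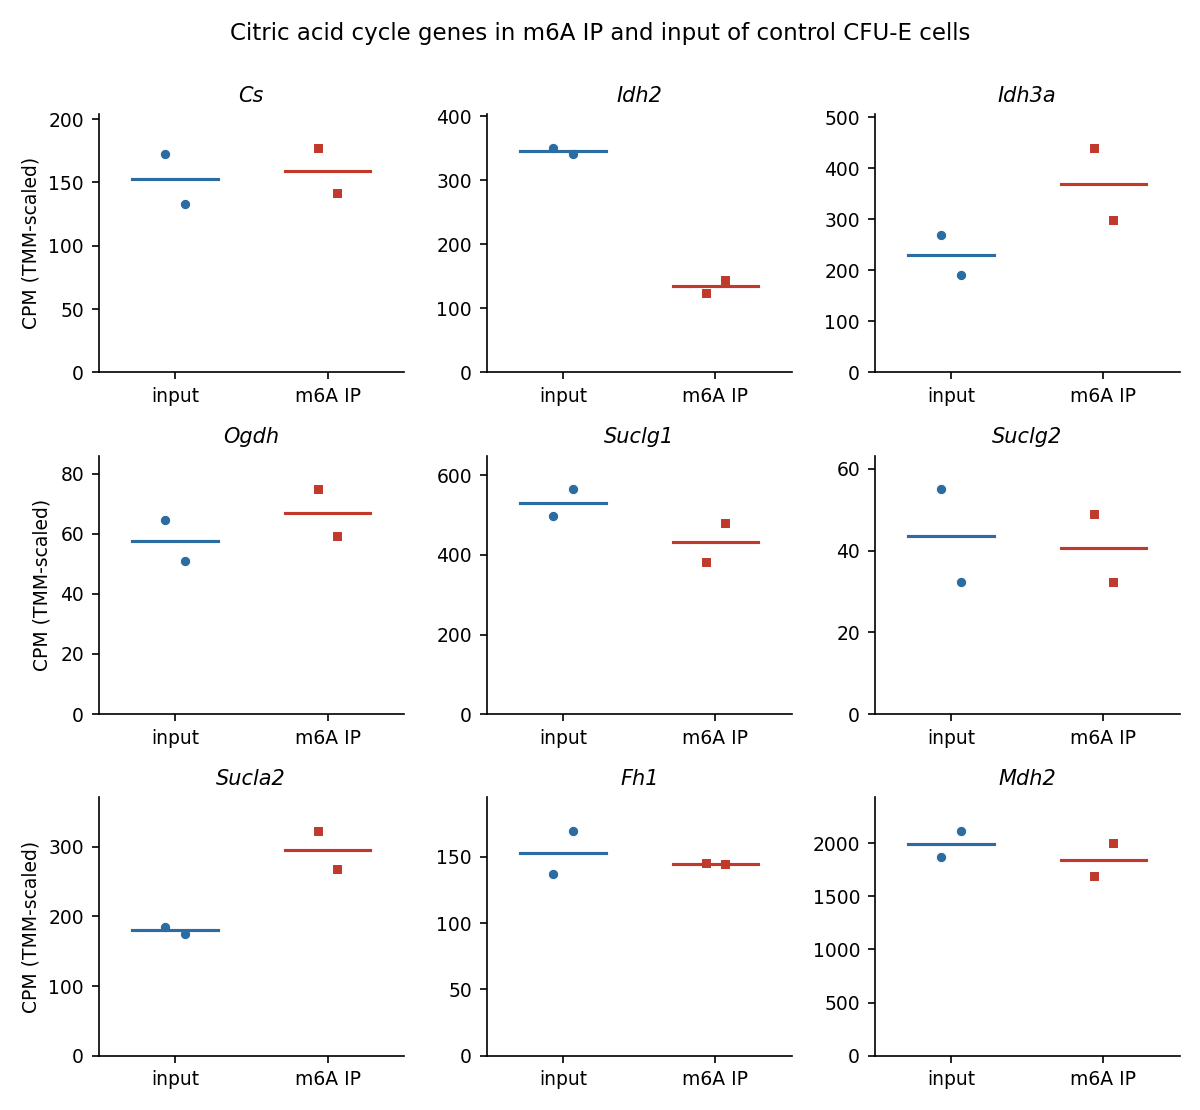
CPM (TMM-scaled, axis from 0) of the 9 genes in 2 input libraries (blue circles) and 2 m6A IP libraries (red squares) of control CFU-E, with a line at each group's mean. Sucla2 rose from 180 to 295 CPM and Idh2 fell from 346 to 134 CPM, while Cs, Ogdh, Suclg2, Fh1 and Mdh2 overlapped.

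Sucla2 was the enriched gene, with 186 and 175 CPM in the input and 323 and 268 CPM in the IP libraries. Its log2 fold change was 0.71 (SE 0.21) with an adjusted p of 0.048 by edgeR's quasi-likelihood test, close to the threshold, and adjusted p-values ran from 0.0025 to 0.31 over 11 alternatives, of which 5 lost the call. Those were DESeq2's size factors (0.068), no filter on low counts (0.054), and the fits without input replicate 1 (0.28), input replicate 2 (0.31) or IP replicate 1 (0.18), in which a lone library is taken to vary like the others. Idh3a had nearly the same log2 fold change, 0.68, with 270 and 190 CPM in input against 440 and 298 CPM in IP, and an adjusted p of 0.10 in the same test. Each IP library lay above each input library, and a difference between the 2 genes was not tested.

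Idh2 was lower in IP, with 351 and 342 CPM in the input and 124 and 145 CPM in the IP libraries. The log2 fold change was -1.37 (SE 0.21) with an adjusted p of 0.0021 by edgeR's quasi-likelihood test, and it kept its call in all 11 alternatives. Of the 9 genes, Idh2 had the lowest IP over input.

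The 3 genes called lower in the RNA-seq were not enriched. Suclg1 measured 498 and 565 CPM in input and 383 and 480 CPM in IP, a log2 fold change of -0.30 (95% interval -0.80 to 0.20), each IP library below each input library. Suclg2 was at -0.10 (95% interval -0.78 to 0.58) and Fh1 at -0.08 (95% interval -0.56 to 0.40), with overlapping libraries, and both turned positive when libraries were scaled by library size or upper quartile. Those intervals are wide and a miss of the threshold does not show that these mRNAs carry no m6A. Cs at 0.06, Ogdh at 0.22 and Mdh2 at -0.11 (positive under the same scalings) did not pass either, and the adjusted p-values of these 6 genes ran from 0.39 to 0.89. The IP and input libraries came from control cells, so they hold no measure of m6A in the libraries labelled Kit-lo.

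The sequence GGACT, the common core of the m6A consensus, was counted in the longest coding transcript of each gene. Sucla2 held 6 matches in 2229 bases, 2.69 per kb, the highest of the 9, Ogdh 7 (1.70 per kb), Cs 5 (1.71 per kb), Idh3a 3, Suclg2 2, and Suclg1 and Mdh2 1 each, while Idh2 and Fh1 held 0. The 6 matches of Sucla2 are shown with 8 bases on each side, since it is the enriched gene, the core in capitals and coordinates on GRCm38, plus strand.

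Sucla2 site 1 (chr14:73552790-73552810, 5′ UTR): gacgggtcGGACTcagaaatg
Sucla2 site 2 (chr14:73560466-73560486, coding exon): acaagcatGGACTacaagtgc
Sucla2 site 3 (chr14:73581706-73581726, coding exon): aacattgtGGACTctgcagca
Sucla2 site 4 (chr14:73590822-73590842, coding exon): gatcttcaGGACTggagtcag
Sucla2 site 5 (chr14:73591056-73591076, coding exon): acacggagGGACTccagccaa
Sucla2 site 6 (chr14:73595608-73595628, 3′ UTR): ctgagaatGGACTgtttatat

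Of these, 4 lay in coding exons and 1 in each untranslated region. The count did not set enriched genes apart in general, the median being 0.924 per kb over genes enriched in IP, 1.06 over genes lower in IP and 1.03 over all tested. A density at least that of Sucla2 was found in 3.40% of all genes with a transcript and in 1.22% of the enriched ones, and 7.86% of all genes held none, like Idh2 and Fh1. Fh1, also with 0 matches, was at -0.08 in IP over input, far from the -1.37 of Idh2. The match of GGACT to the IP values of Sucla2 and Idh2 is thus a description, made with those values known.

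Among the other cycle subunits, Dld, the shared lipoamide dehydrogenase, was enriched in IP with a log2 fold change of 1.11 (adjusted p 0.039), and Idh3g was lower with -0.85 (0.025), by edgeR's quasi-likelihood test. Idh3g was thus lower both in IP over input and in the libraries labelled Kit-lo, whereas Idh3a, its catalytic partner, had positive values in the former and passed neither test. Of the genes around succinyl-CoA, 1 of 9 tested was enriched, Clpx at 1.36 (0.030), and 0 were lower. Of the pyruvate entry genes 1 of 13 was enriched, Pdp2 at 0.96 (0.029), and of the cytosolic and exit genes 3 of 14 were enriched, Acly, Aco1 and Idh1, and 2 were lower, Slc25a1 and Slc1a5. Over all genes tested, 7.9% were enriched and 7.86% lower, and nothing is read from the counts of these lists.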

How the data were processed

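Reads of RNA-seq, input and IP libraries were trimmed by the authors with fastp 0.23.4 and assigned to mouse transcripts with Kallisto 0.48.0, and tximport summed the transcripts of a gene. The study's methods name mm10, the submitters' processing notes name mm10 and GRCm39, and which annotation lies behind the counts is thus uncertain. The deposited values are estimated counts, whole numbers without normalization, in 1 column for each library. RNA-seq libraries were primed with oligo-dT by Smart-seq2. Input and IP libraries were primed with oligo-dT that carried molecular identifiers, and after fragmentation they were amplified with a primer at the 3′ end. Whether the identifiers were used in counting, and the strand, are not given in the sources used here. Of 16 samples, 10 had values, and the 6 ProE samples were not analysed here. The deposited table columns were assigned by their names.

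Differences were tested with edgeR 4.0.16 in R 4.3.3 (TMM, filterByExpr, glmQLFTest, Benjamini-Hochberg adjustment over all genes tested), separately for each experiment and without a block, since same-numbered RNA-seq libraries did not deviate together (r from -0.072 to 0.034) and the m6A libraries form 2 numbered pairs that no label ties. The SE of a log2 fold change is its size divided by the square root of F, and 95% intervals use the same spread. Genes were called at a fold of at least 1.5 and adjusted p under 0.05 (RNA-seq), or at adjusted p under 0.05 (IP over input). Precision was set by the spread between libraries (biological coefficient of variation 19.1% and 21.9%). DESeq2 1.42.0, other scalings and filters and left-out libraries were alternatives. The tests were first tried on simulated counts, with a smaller spread between libraries than these data, so that trial is no check of the calls given here. Ratios and sums used exact permutation tests. Coordinates, merged exons, shared 31-base words and GGACT matches come from GENCODE on GRCm38, and Mmut was matched as Mut. The values of 1 of the other subunits of the cycle are not reported here. Figures were drawn with matplotlib 3.10.9.

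The genes named are the 9 members and called or adjusted-p genes of lists written from general knowledge, plus their partner subunits, and the 3 genes most like each subunit of succinyl-CoA synthetase (average log2 CPM 4 or more). Members and lists were chosen with earlier results of these data known. Partner genes that did not pass, and Gm15163, were named after their values were seen.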

Additional observations from a re-analysis of the deposited data

How the results depend on the processing

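Directions and calls of the 9 genes were recomputed under 16 alternatives for the RNA-seq and 11 for IP over input. In RNA-seq, 3 genes were called lower and 0 higher under 14 alternatives, including each fit without 1 library (3 to 3) and the replicate block (3). Without a fold threshold 5 were lower, and a test against a fold of 1.5 kept 1, Suclg2 (adjusted p 0.0086), while Suclg1 (0.088) and Fh1 (0.059) missed it. Over all genes the number called lower went from 1178 to 2024 and 482 under these, and the number called higher from 1453 to 665 under the second. Leaving out libraries gave 979 to 1247 lower and 1201 to 1513 higher. Cs turned to -0.018 with upper-quartile scaling and ran from -0.023 (without control replicate 2) to 0.051 without 1 library, and Idh2 from -0.0049 (without replicate 1 of the libraries labelled Kit-lo) to 0.19. The summed CPM was lower by less (log2 -0.27) with library size only and ran from -0.34 to -0.30 without 1 library, and the log2 ratio of Suclg2 to Sucla2 from -0.68 to -0.49. Of all RNA-seq calls, 55.2% were higher, against 61.0% with library size and 50.7% with upper quartile.

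IP over input was less stable. The number of the 9 enriched was 0 with DESeq2's size factors and 0 without a filter, 0 to 2 without 1 library, and 2 with the replicate block, where Idh3a joined Sucla2 (adjusted p 0.0032). The block raised the genes enriched from 904 to 1783 and those lower from 900 to 1755. Same-numbered IP and input libraries deviated together (r 0.205), but with 2 pairs, and no label that ties them, they share only a number. Upper-quartile scaling gave 1451 enriched, and leaving out libraries gave 164 (without input replicate 1) to 1358 enriched (without IP replicate 2) and 427 to 968 lower. Library size and upper quartile moved the median of all genes to 0.21 and 0.18 and the share of calls that were enriched from 50.1% to 60.6% and 65.8%, and turned Suclg2 to 0.060 and 0.021, Fh1 to 0.083 and 0.049, and Mdh2 to 0.044 and 0.023. Without 1 library, Suclg2 ran from -0.45 to 0.304 (0.160 without IP replicate 2), Cs from -0.132 to 0.24 (-0.123 without input replicate 2) and Fh1 from -0.25 to 0.076. The cause of these shifts was not tested. A fit without 1 of 2 libraries assumes that the lone library varies like the other group.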

Other observations

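The 9 genes stood in a different order in the 2 protocols run on control CFU-E. By mean CPM, Idh2 ranked 9 of 9 in RNA-seq (47.4) and 3 of 9 in the m6A input (346), while Suclg2 ranked 5 of 9 in RNA-seq (257) and 9 of 9 in the input (43.7). The ratio of input to RNA-seq CPM was 7.30 for Idh2, 2.23 for Mdh2, 2.09 for Suclg1, 1.03 for Sucla2 and 0.653 for Idh3a. It was 0.517 for Cs, 0.299 for Fh1, 0.249 for Ogdh and 0.170 for Suclg2. Over 6867 genes the median of that ratio was 0.494, with 2.97% of genes at or above Idh2 and 24.5% at or below Suclg2. Within the input, counts of Suclg2 over Sucla2 were 0.296 and 0.185, against 1.41 to 1.57 in the control RNA-seq libraries. These CPM values were not scaled by length. The longest transcripts were 1606 bases for Mdh2, 1790 for Idh2, 2767 for Suclg1, 3367 for Suclg2 and 4127 for Ogdh. Suclg2 also shares 20.1% of its 31-base words with Gm15163. The part of length and of shared words in the ratios was not tested. The tables were normalized separately and the libraries were made by different methods, so these ratios are not a test of any difference between cells. Levels of these genes relative to each other depend on which protocol is read.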
